A study of Rattus norvegicus with 15 samples.

Results

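The glucocorticoid-responsive genes described here are 10 genes chosen by name, Nr3c1, Fkbp5, Tsc22d3, Nfkbia, Sgk1, Zbtb16, Klf9, Pdk4, Ddit4 and Cdkn1a, among 18166 genes of an expression array. Each was represented by the row of the value table that carried its symbol alone, and all 10 genes were found among 36685 rows. The values came from the striatum of male Sprague-Dawley rats, with 1 array per rat and 3 rats in each of 5 groups. For the arrays the paper names the striatum of the lesioned side. It gives a time after the last L-DOPA with the perfused rats, and no separate time for the rats of the arrays. LID+PD98059 rats had a unilateral 6-OHDA lesion of the dopamine pathway, 3 weeks of daily L-DOPA with dyskinesia, and the MEK inhibitor PD98059 infused into the lateral ventricle for 12 days starting on day 10. LID+Vehicle rats had the same lesion, L-DOPA and infusion schedule, with vehicle in place of the inhibitor. LID rats had the lesion and L-DOPA, PD rats the lesion without L-DOPA, and Normal rats a sham operation. A ventricular cannula is described for the 2 infused groups only, and L-DOPA was given with benserazide, a blocker of its breakdown outside the brain. The L-DOPA rats had been selected for full dyskinesia, and corticosterone, the rat's own glucocorticoid, was not measured in the sources used here.

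Glucocorticoids released by the adrenal gland under stress and in a daily rhythm enter cells and bind the glucocorticoid receptor, which is held ready by HSP90 and its co-chaperones. The bound receptor moves to the nucleus and switches on a set of genes that several tissues, brain included, have in common. Many of these genes also answer to other signals, such as inflammation, hypoxia or DNA damage, so a change in 1 of them does not identify the hormone.

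Values are log2 RMA signals, so a difference of 1 is a doubling of the signal, and levels were compared between groups but never between genes. Genes were counted as past the unadjusted threshold where the p of limma was under 0.05 before adjustment and the fold change was 1.2 or more either way. The p after adjustment over all rows is given beside it. An exact permutation test of 3 against 3 rats cannot give a p under 0.1. The dim level of 5.85 was set from 70 olfactory receptor rows. Of the 10 genes, 9 lay above it on all 15 arrays, and Cdkn1a did so on 3. In bulk striatum, fewer cells of a type and less RNA per cell cannot be told apart. All 9 measured markers of striatal projection neurons were above the dim level. Between arrays, all rows correlated at 0.966 to 0.987, and no gene of the set passed the adjusted threshold in any of the 5 planned comparisons. That threshold was passed by 0.00545% of rows in LID against PD and by 0 rows in the other 4.

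Upstream sequence is shown for 4 of the 5 genes in which a motif of a known regulator was found in the 250 bases before a RefSeq start site (GRCr8). Klf9, the other one, is not shown because it holds the same short motif as Ddit4. Windows were at hand for 9 of the 10 genes, 14 windows in all, and Zbtb16 had none. Both strands were searched, and capitals mark the match.
Tsc22d3, chrX:109065560-109065659, minus strand: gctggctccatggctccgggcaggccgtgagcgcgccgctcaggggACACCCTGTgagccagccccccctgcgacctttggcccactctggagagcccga
Nfkbia, chr6:78597073-78597172, minus strand: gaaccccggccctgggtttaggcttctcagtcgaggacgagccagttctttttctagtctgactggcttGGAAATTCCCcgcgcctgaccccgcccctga
Ddit4, chr20:28437124-28437223, minus strand: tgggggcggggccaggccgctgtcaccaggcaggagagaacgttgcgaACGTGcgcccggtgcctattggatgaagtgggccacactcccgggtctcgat
Cdkn1a, chr20:7150691-7150790, plus strand: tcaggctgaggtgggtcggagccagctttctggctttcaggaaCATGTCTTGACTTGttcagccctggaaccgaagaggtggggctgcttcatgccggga
The match in Tsc22d3 is to ACANNNTGT, the core of the glucocorticoid response element, which 5.81% of 33469 RefSeq windows hold. The match in Nfkbia is to an NF-kB type motif, held by 1.08% of windows, and lies at positions -31 to -22 from the start. Cdkn1a holds a p53 type motif, found in 0.155% of windows, and Ddit4 and Klf9 hold the hypoxia response core ACGTG, found in 16.6%. The fuller palindrome of the glucocorticoid response element (0.373% of windows) and the half-site TGTTCT (17.5%) were in 0 of the 14 windows. These matches describe letters in a short window only.

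The receptor gene Nr3c1 differed little between the groups. Its values were 8.80, 8.77 and 8.87 in LID+PD98059, 8.62, 8.96 and 9.02 in LID+Vehicle, 8.9997, 9.15 and 8.92 in LID, 8.75, 8.94 and 8.95 in PD, and 8.91, 8.66 and 8.76 in Normal. The 3 LID+PD98059 values all lay under the 3 LID values, by 0.21 in the mean (limma interval 0.47 lower to 0.05 higher, exact permutation p = 0.1). The spread of Nr3c1 within groups was at the 38.0th percentile of genes above the dim level, the lowest percentile among the 10.

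Fkbp5 encodes a co-chaperone of HSP90 that lowers the receptor's affinity for hormone and is itself induced by the receptor. Fkbp5 values were 8.76, 8.46 and 8.57 in LID+PD98059, 8.36, 9.33 and 8.80 in LID+Vehicle, 8.84, 8.82 and 8.55 in LID, 8.11, 8.45 and 8.11 in PD, and 8.31, 8.16 and 8.40 in Normal. All 3 LID values lay above all 3 PD values, while LID+Vehicle replicate 1 fell within the range of the PD and Normal rats.

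Tsc22d3 encodes GILZ, a leucine zipper protein that carries part of the hormone's anti-inflammatory action. Its values were 7.38, 7.03 and 7.48 in LID+PD98059, 6.52, 7.95 and 7.18 in LID+Vehicle, 6.98, 7.26 and 6.96 in LID, 7.40, 7.34 and 7.51 in PD, and 7.11, 6.61 and 6.95 in Normal. PD rats lay above both LID and Normal rats without overlap, and the LID+Vehicle group held both the lowest and the highest of the 15 values. Nfkbia encodes the inhibitor that keeps NF-kB in the cytoplasm, and is induced by NF-kB as well as by glucocorticoids. Its values were 8.06, 8.69 and 7.60 in LID+PD98059, 9.12, 8.96 and 7.85 in LID+Vehicle, 8.21, 8.18 and 8.48 in LID, 8.11, 8.09 and 7.94 in PD, and 7.57, 8.06 and 7.72 in Normal. The infused groups spread over more than 1 log2 unit, and LID lay just above PD without overlap.

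Sgk1, a kinase that regulates ion channels and transporters, had values of 9.73, 9.54 and 8.79 in LID+PD98059, 9.93, 10.24 and 9.73 in LID+Vehicle, 9.79, 9.92 and 9.51 in LID, 9.73, 10.05 and 9.75 in PD, and 9.24, 9.38 and 9.79 in Normal. LID+PD98059 replicate 3 was the lowest of the 15. Pdk4 encodes a kinase that turns off pyruvate dehydrogenase and so spares glucose. It had values of 7.19, 6.85 and 6.42 in LID+PD98059, 6.87, 8.30 and 6.43 in LID+Vehicle, 6.83, 6.93 and 6.57 in LID, 6.64, 7.25 and 6.99 in PD, and 6.63, 6.83 and 6.94 in Normal. A single array, LID+Vehicle replicate 2, stood more than 1 log2 unit above the rest, and the spread of Pdk4 within groups was at the 96.1st percentile of genes.

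Of the transcription factors, Klf9 also answers to thyroid hormone, and Zbtb16 encodes a zinc finger repressor. Klf9 had values of 10.62, 10.02 and 10.34 in LID+PD98059, 10.00, 10.89 and 10.49 in LID+Vehicle, 10.29, 10.67 and 10.15 in LID, 10.37, 10.47 and 10.39 in PD, and 10.19, 10.06 and 10.54 in Normal. Zbtb16 had values of 7.32, 7.20 and 7.47 in LID+PD98059, 6.70, 7.60 and 6.53 in LID+Vehicle, 7.06, 7.13 and 6.53 in LID, 7.10, 6.98 and 7.60 in PD, and 6.74, 7.26 and 7.52 in Normal. Klf9 overlapped in every pair of groups compared, and Zbtb16 in all but LID+PD98059 against LID, where it was 0.42 higher (limma interval 0.19 lower to 1.03 higher, exact permutation p = 0.1).

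Ddit4 and Cdkn1a restrain growth. Ddit4 encodes REDD1, an inhibitor of mTORC1 that is also induced by hypoxia, and had values of 7.91, 7.84 and 7.84 in LID+PD98059, 8.02, 8.36 and 8.02 in LID+Vehicle, 7.88, 7.82 and 7.41 in LID, 7.68, 7.63 and 7.84 in PD, and 7.09, 7.71 and 7.65 in Normal. Cdkn1a encodes p21, a cell cycle inhibitor and p53 target, and had values of 5.78, 5.59 and 5.70 in LID+PD98059, 6.83, 6.22 and 5.84 in LID+Vehicle, 5.58, 5.64 and 5.96 in LID, 5.37, 5.52 and 5.67 in PD, and 5.26, 5.27 and 5.70 in Normal. All 3 LID+Vehicle values of Ddit4 were above every value of the other 4 groups. Cdkn1a was above the dim level in LID+Vehicle replicates 1 and 2 and LID replicate 3 only.

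**Figure D1:**
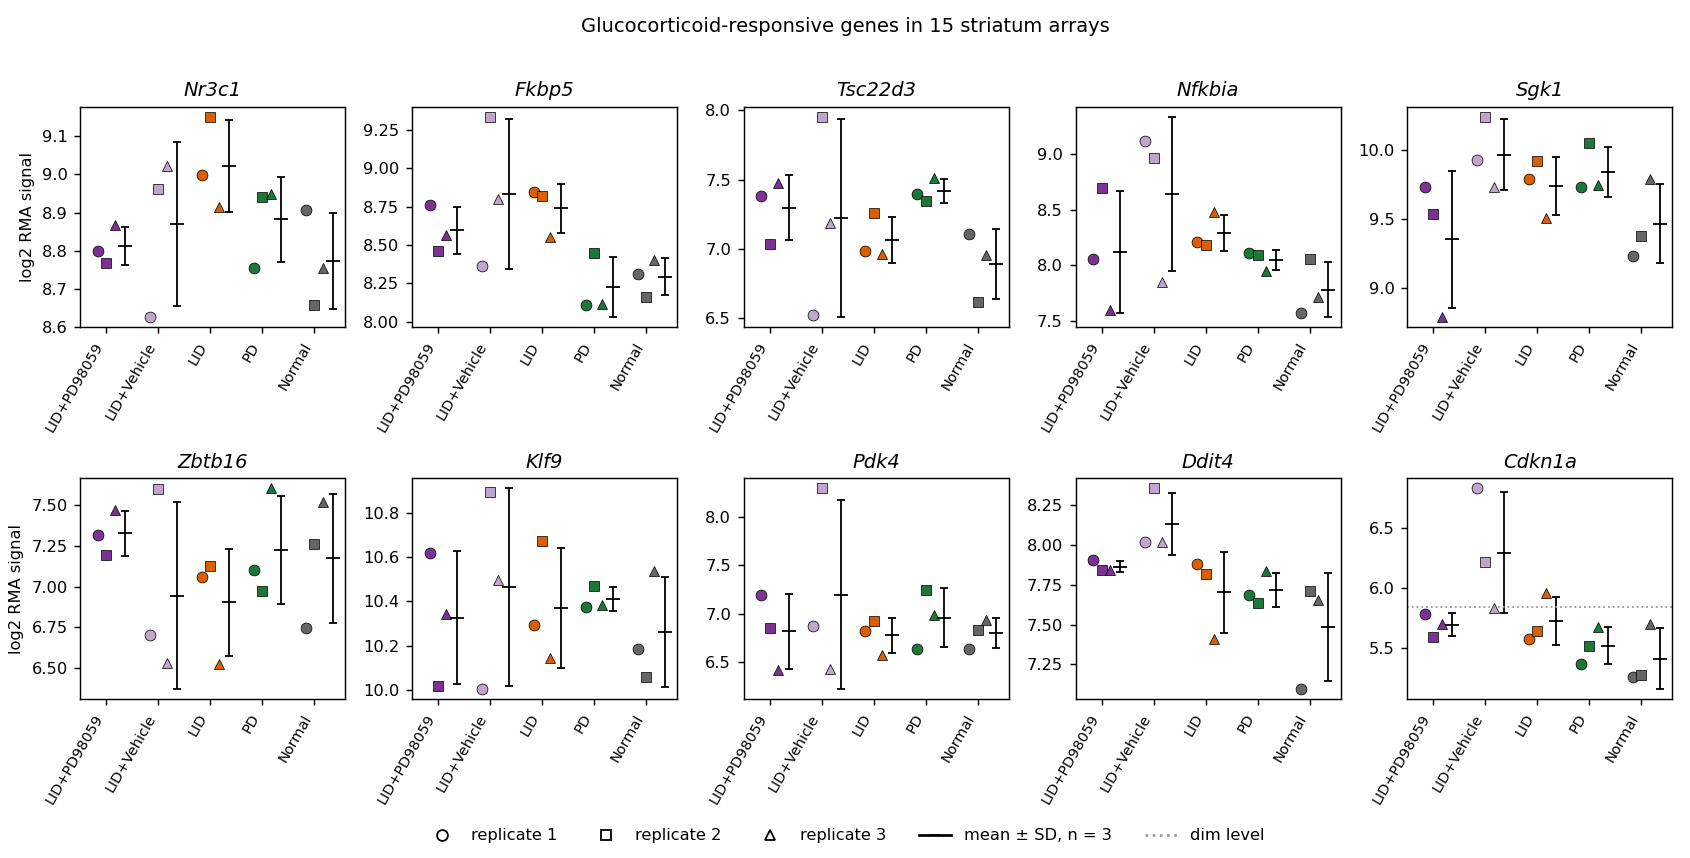
Log2 RMA signal (vertical axes, a separate range for each gene) of the 10 genes in each rat, by group (horizontal axes), with the mean and SD of 3 rats beside the points and the dim level as a dotted line for Cdkn1a. LID+Vehicle replicate 2 is the highest square in most panels, and Fkbp5 is low in PD and Normal rats.

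The comparison of LID+PD98059 with LID+Vehicle asks what the MEK inhibitor adds to its infusion. Sgk1 and Cdkn1a were lower in LID+PD98059 at the unadjusted threshold, 2 of the 10 genes, against 4.44% of all rows in either direction and 2.12% lower. Sgk1 averaged 9.35 ± 0.50 in LID+PD98059 and 9.97 ± 0.26 in LID+Vehicle (SD, n = 3 each), a log2 fold change of -0.61 (SE 0.23, limma p = 0.0204, adjusted p = 0.966, exact permutation p = 0.2). It missed the threshold without LID+PD98059 replicate 3, at -0.33, and without LID+Vehicle replicate 2, at -0.48. The highest LID+PD98059 value and the lowest LID+Vehicle value of Sgk1 were the same number, 9.73052, which PD replicate 1 had as well. Cdkn1a averaged 5.69 ± 0.10 in LID+PD98059, under the dim level, and 6.29 ± 0.50 in LID+Vehicle, a log2 fold change of -0.60 (SE 0.21, limma p = 0.0140, adjusted p = 0.966, exact permutation p = 0.1). All 3 LID+PD98059 values lay under the dim level, so the size of this difference is only bounded, with the LID+Vehicle mean 0.45 above that level. Without LID+Vehicle replicate 1 it was -0.34 and missed the threshold. Cdkn1a and Ddit4 did not overlap between the groups, and 9.16% of all rows did not overlap.

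The 10 genes had a median log2 fold change of -0.25 in this comparison, against 0.01 over all rows, with 8 of 10 below 0. Without LID+Vehicle replicate 2 the median was 0.0013, so this shift rested on that array. Of 18 measured genes for receptor partners and ligand supply, 4 passed lower and 0 higher. They were Stip1, an HSP70 to HSP90 adaptor, at -0.45, Ptges3, the p23 co-chaperone, at -0.38, Fkbp4, a co-chaperone, at -0.30 and Hsp90ab1, a form of HSP90, at -0.29, each with an adjusted p of 0.966 by limma. Among 27 measured other glucocorticoid-induced genes, 3 passed lower and 0 higher. These were Errfi1, a feedback inhibitor of the EGF receptor, at -0.82, the clock gene Per1 at -0.49 and the insulin receptor substrate gene Irs2 at -0.47. The reactive astrocyte markers were below 0 in 13 of 13 with 0 past the threshold (median -0.61), and 6 of 15 hypoxia and stress targets passed lower. The means of the hypoxia and stress list were 8.13, 7.66 and 7.49 in LID+Vehicle and 7.37, 7.50 and 7.40 in LID+PD98059. LID+Vehicle replicate 3 thus lay within the LID+PD98059 range. Immediate early genes, which neurons switch on within minutes of activity, had fold changes below 0 in 13 of 14, with 7 past the threshold lower (median -0.59). Their means were 6.92 to 7.19 in LID+PD98059 and 7.28 to 8.25 in LID+Vehicle, and Fosb, Arc and Egr1 were at -0.86, -0.84 and -0.58 (limma adjusted p = 0.966 each). Of 4 FosB probe sets, the paper saw its expected rise with L-DOPA and fall with PD98059 only in another than the row used here. The part of these lists in the values of the 10 genes was not tested.

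LID+Vehicle against LID describes rats with an infusion and rats without one. Ddit4 and Cdkn1a were higher in LID+Vehicle, 2 of the 10 genes, against 3.68% of all rows in either direction and 1.85% higher. Ddit4 averaged 8.13 ± 0.19 in LID+Vehicle and 7.70 ± 0.25 in LID (SD, n = 3 each), a log2 fold change of 0.43 (SE 0.17, limma p = 0.0251, adjusted p = 0.99992, exact permutation p = 0.1), and was the 1 gene of the set that did not overlap, as 8.01% of rows did not. Cdkn1a averaged 6.29 ± 0.50 in LID+Vehicle and 5.73 ± 0.20 in LID, a log2 fold change of 0.57 (SE 0.21, limma p = 0.0189, adjusted p = 0.99992, exact permutation p = 0.2). Of the 3 LID values of Cdkn1a 2 lay under the dim level, and the LID+Vehicle mean was 0.45 above that level. Ddit4 missed the threshold without LID+Vehicle replicate 2 (0.32) or LID replicate 3 (0.28). Cdkn1a missed it without LID+Vehicle replicate 1 (0.30), LID replicate 1 (0.49) or LID replicate 2 (0.53).

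The median of the 10 genes was 0.19 with 9 of 10 above 0, against -0.01 over all rows, and it was -0.12 without LID+Vehicle replicate 2. Of the 27 other glucocorticoid-induced genes, 7 passed higher and 0 lower. Lcn2, an iron-binding acute-phase protein that is on the reactive astrocyte list too, was 3.09 higher, and Angptl4, a lipase inhibitor, was 1.11 higher. Errfi1 and the glucose transporter gene Slc2a1 were 0.64 and 0.39 higher. The adjusted p of limma was 0.99992 for each of these 4. Lcn2 stood at 11.05, 11.02 and 7.46 in LID+Vehicle, against 6.92, 5.76 and 7.59 in LID, so the third LID+Vehicle rat lay within the LID range. In this comparison the fold changes of 11 of 13 reactive astrocyte markers (median 0.86, 3 past the threshold), 15 of 15 hypoxia and stress targets (1 past), 12 of 14 immediate early genes (4 past) and 11 of 12 microglia markers (0 past) were above 0. Those of 5 of 5 cortical neuron markers were below 0 (median -0.57, 0 past). Their part in the values of the 10 genes was not tested.

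LID+PD98059 against LID gave 0 of 10 genes past the unadjusted threshold, against 4.74% of all rows. The median was -0.04 with 6 of 10 below 0, and 2 genes did not overlap, Nr3c1 lower and Zbtb16 higher, against 9.96% of rows. The 3 comparisons among the L-DOPA groups share their rats, so their values are not separate observations, and LID and PD rats enter the comparisons that follow as well. Hif3a, a member of the hypoxia-inducible factor family, and Lcn2 were the 2 other glucocorticoid-induced genes that passed, at 0.56 and 2.43 higher in LID+PD98059 (limma adjusted p = 0.915 each).

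**Figure D2:**
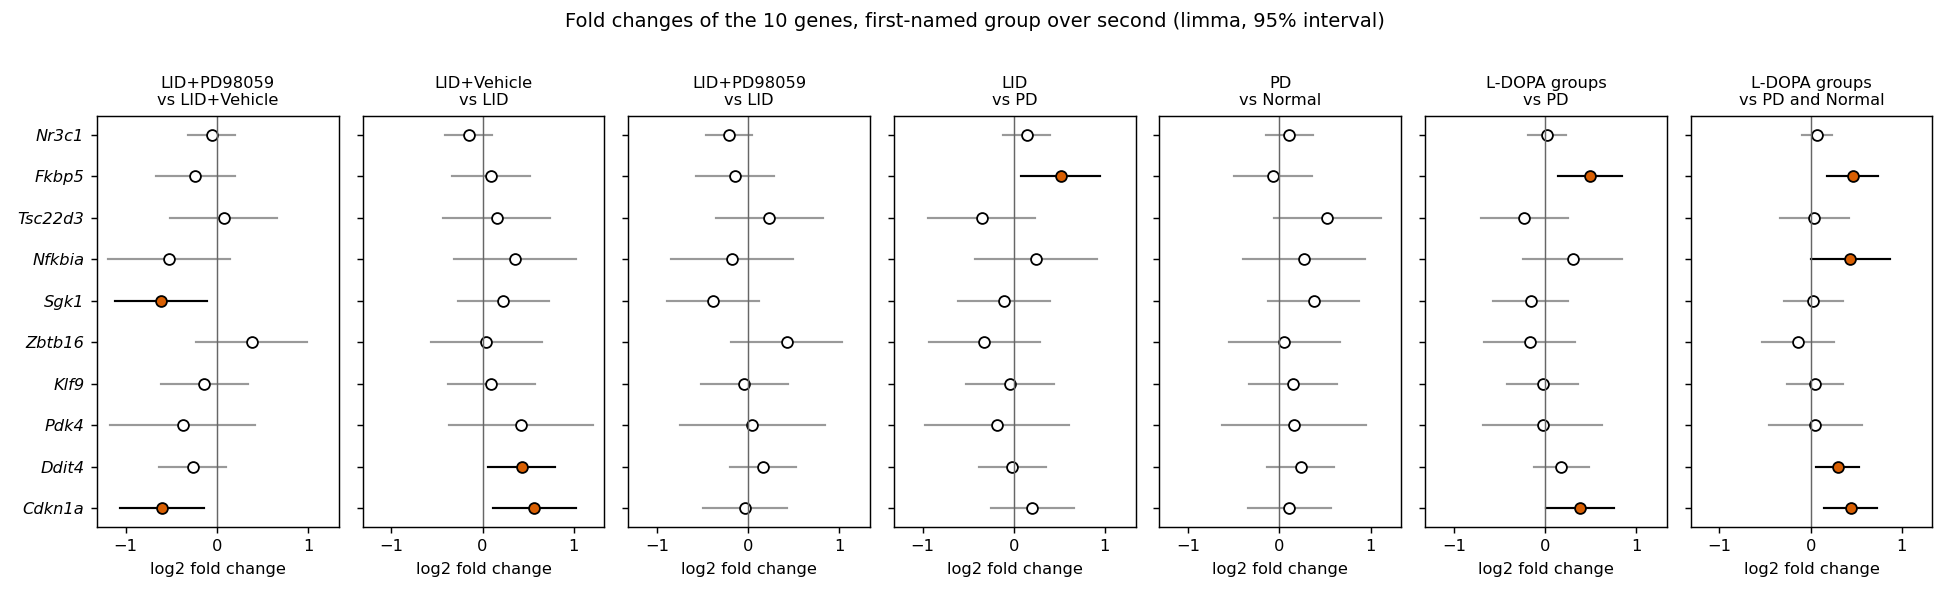
Log2 fold changes (horizontal axes) of the 10 genes, with 95% intervals from limma, first-named group over second, in 5 planned comparisons and 2 added ones. Filled points mark genes past the unadjusted threshold, and the intervals of the others cross 0 (vertical line).

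LID against PD describes L-DOPA treatment in lesioned rats. Fkbp5 was higher in LID, the 1 gene of 10 past the unadjusted threshold, against 8.17% of all rows in either direction and 3.48% higher. It averaged 8.74 ± 0.16 in LID and 8.22 ± 0.20 in PD (SD, n = 3 each), a log2 fold change of 0.51 (SE 0.20, interval 0.08 to 0.94, limma p = 0.0233, adjusted p = 0.506, exact permutation p = 0.1). It missed the threshold without LID replicate 1 or 2 or PD replicate 1 or 3, with log2 fold changes of 0.46 to 0.47. Fkbp5, Nfkbia (0.24 higher) and Tsc22d3 (-0.35) did not overlap between the groups, 3 of 10 genes, while 15% of all rows did not. The median of the 10 genes was -0.03, as over all rows.

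Of 13 measured clock genes, 4 passed lower and 1 higher. Nr1d1, a clock repressor, was at -0.66, Ciart, another repressor, at -0.56 and Bmal1, the clock's activator, at -0.28, while Cry1, a repressor, was 0.41 higher, all with adjusted p from 0.313 to 0.496 by limma. Of the other glucocorticoid-induced genes, 2 passed higher, Nedd9, a scaffold of cell adhesion, at 0.53 and the metallothionein gene Mt2A at 1.12, and 1 lower, Hif3a at -0.56. Bag1, an HSP70 co-chaperone, was 0.48 higher (limma adjusted p = 0.435), the 1 receptor partner gene of 18 that passed. Reactive astrocyte markers had fold changes above 0 in 13 of 13 (median 0.84, 3 past the threshold) and cortical neuron markers below 0 in 5 of 5 (median -0.69, 0 past), and their part was not tested.

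PD against Normal describes the lesion. No gene of the set passed the unadjusted threshold (0 of 10, against 4.31% of all rows). Tsc22d3 was the 1 gene that did not overlap, with a mean of 7.42 ± 0.09 in PD and 6.89 ± 0.25 in Normal (SD, n = 3 each), a difference of 0.53 (limma interval 0.06 lower to 1.12 higher, exact permutation p = 0.1), while 10.5% of rows did not overlap. The median of the 10 genes was 0.15 with 9 of 10 above 0, against 0.01 over all rows. Of the other glucocorticoid-induced genes, 2 passed, both higher: Mfsd2a, a lipid transporter of brain endothelium, by 0.51 (limma adjusted p = 0.784) and Slc2a1 by 0.36 (limma adjusted p = 0.99986). Endothelial and pericyte markers had fold changes above 0 in 10 of 10 (median 0.25, 2 past the threshold) and oligodendrocyte markers in 11 of 11 (median 0.34, 4 past). Cortical neuron markers were below 0 in 5 of 5 (median -0.73, 2 past). The part of these cell types in the values of the 10 genes was not tested.

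The 3 L-DOPA groups were also joined after the values had been seen, in 2 forms. The first set them against PD and Normal together. The second, run once the results of the first were known, set them against PD alone, because Normal rats had no lesion. Fkbp5 was higher in the L-DOPA groups in both. It averaged 8.72 ± 0.29 in 9 L-DOPA rats and 8.22 ± 0.20 in 3 PD rats (SD), a log2 fold change of 0.50 (SE 0.16, limma p = 0.00941, adjusted p = 0.294, exact permutation p = 0.0273). Against the 6 PD and Normal rats, whose mean was 8.26 ± 0.15, the log2 fold change was 0.46 (SE 0.13, limma p = 0.00335, adjusted p = 0.0870, exact permutation p = 0.0022). The threshold was passed without any 1 array in both forms, with log2 fold changes of 0.41 to 0.61 against PD and 0.38 to 0.54 against PD and Normal.

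Against PD alone, 2 of 10 genes passed, both higher, Fkbp5 and Cdkn1a, beside 9.06% of all rows in either direction and 3.83% higher. Cdkn1a averaged 5.90 ± 0.40 in the 9 L-DOPA rats and 5.52 ± 0.15 in the 3 PD rats (SD), a difference of 0.38 (SE 0.17, limma p = 0.0451, adjusted p = 0.430, exact permutation p = 0.127) and missed the threshold in 7 of the 12 cases in which 1 array was left out. All PD and Normal values of Cdkn1a lay under the dim level, and the mean of the L-DOPA rats was only 0.06 above it, so the size of its difference from either is not measured beyond that bound. Against PD and Normal, 4 of 10 passed, all higher, beside 11.4% of all rows in either direction and 5.28% higher. Besides Fkbp5 these were Cdkn1a, Nfkbia and Ddit4. Cdkn1a averaged 5.90 ± 0.40 in 9 L-DOPA rats and 5.47 ± 0.20 in 6 PD and Normal rats (SD), a log2 fold change of 0.44 under the same bound (SE 0.14, limma p = 0.00701, adjusted p = 0.121, exact permutation p = 0.0174). Nfkbia averaged 8.35 ± 0.51 in the L-DOPA rats and 7.91 ± 0.22 in the PD and Normal rats, a log2 fold change of 0.44 (SE 0.20, limma p = 0.0483, adjusted p = 0.279, exact permutation p = 0.0717). It missed the threshold in 12 of the 15 cases in which 1 array was left out, and passed only without LID+PD98059 replicate 3, LID+Vehicle replicate 3 or Normal replicate 2. Ddit4 averaged 7.90 ± 0.25 in the L-DOPA rats and 7.60 ± 0.26 in the PD and Normal rats, a log2 fold change of 0.30 (SE 0.11, limma p = 0.0177, adjusted p = 0.182, exact permutation p = 0.0396). It missed the threshold without LID+Vehicle replicate 2 (0.26) or Normal replicate 1 (0.20). Nfkbia and Ddit4 were 0.30 and 0.18 higher against PD alone and did not pass there. The median of the 10 genes was -0.002 against PD and 0.06 against PD and Normal, beside -0.02 over all rows in each. The adjusted threshold was passed by 0 of the 10 genes in both, beside 0.0164% of rows against PD and 1.78% against PD and Normal.

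Other cell type markers moved in the same arrays. The reactive astrocyte markers averaged 6.88 to 9.54 in the 9 L-DOPA rats and 6.53 to 6.63 in the 3 PD rats, with 11 of 13 past the threshold higher against PD. Cortical neuron markers averaged 5.53 to 7.13 in the L-DOPA rats and 6.99 to 7.64 in PD rats, with 4 of 5 past the threshold lower. Microglia markers had fold changes above 0 in 12 of 12, with 2 past the threshold. Normal rats had cortical marker means of 7.58 to 8.34, and against PD and Normal 5 of 5 cortical markers passed lower. Over the 15 arrays, Fkbp5 correlated at -0.71 with the mean of the cortical markers and at 0.71 with that of 9 striatal projection neuron markers. The latter list holds Pdyn and Tac1, which were 1.86 and 0.59 higher against PD (limma adjusted p = 0.0312 and 0.291). Of its 9 markers, 4 were above 0 and 5 below in that comparison (median -0.02), so its mean does not stand for cell content alone. Other lists moved too. In both forms 5 of 13 clock genes passed lower and 1 higher, with Nr1d1 at -0.74 against PD and Normal (limma adjusted p = 0.0031). Of all rows, 9.06% passed against PD and 11.4% against PD and Normal, in either direction. Of 27 other glucocorticoid-induced genes, 9 passed higher and 0 lower against PD and Normal, and 7 and 0 against PD. Of the 18 receptor partner genes, 1 passed higher against PD, Bag1 at 0.36 (limma adjusted p = 0.308). Against PD 2 passed lower, Nr3c2 at -0.45 and Ncoa1 at -0.28 (limma adjusted p = 0.343 and 0.347). Against PD and Normal, 1 passed higher, Bag1 at 0.40 (limma adjusted p = 0.0521), and 0 lower. The part of tissue makeup or of these lists in the Fkbp5 values was not tested.

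Over 15 arrays the correlation with the mean of the reactive astrocyte list was 0.87 for Nfkbia and 0.77 for Cdkn1a, and with the hypoxia and stress list 0.81 and 0.88. With the other glucocorticoid-induced genes it was 0.82 and 0.80, and with the microglia markers 0.70 and 0.44. The glucocorticoid-induced list shares Lcn2 with the reactive list and Slc2a1 with the hypoxia and stress list. These are descriptions over arrays that share groups, and Cdkn1a was not above the dim level on 12 of the 15 arrays. Without LID+Vehicle replicate 1 the correlations with the reactive list were 0.81 for Nfkbia and 0.63 for Cdkn1a, and those with the hypoxia and stress list 0.74 and 0.67. Fkbp5 was at 0.44 and 0.27 with these lists over 15 arrays, and at 0.65 and 0.71 only without that array. LID+Vehicle replicate 1 had the highest values of Nfkbia and Cdkn1a, of the reactive markers (9.54) and of the hypoxia and stress targets (8.13). Tsc22d3 and Klf9 correlated at 0.72 and 0.68 with the mean of 9 astrocyte markers. With that of 9 striatal projection neuron markers they were at 0.64 and 0.71, and Nr3c1 was at 0.75. LID+Vehicle replicate 1 was the lowest of the 15 arrays for the astrocyte markers (9.23), Tsc22d3 and Klf9. Correlations with these 2 lists were not computed without it.

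**Figure D3:**
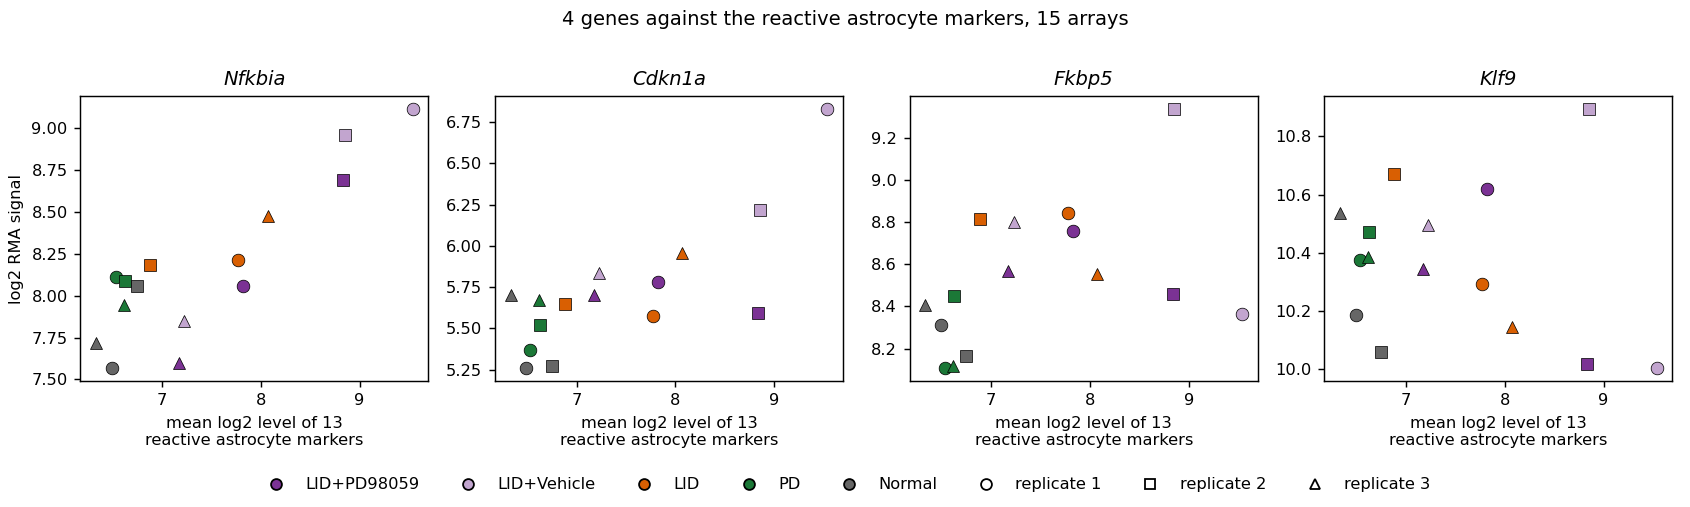
Log2 RMA signal of 4 genes (vertical axes) against the mean log2 level of 13 reactive astrocyte markers (horizontal axes) in 15 rats, with colour for the group and shape for the replicate. Nfkbia rises along the axis (correlation 0.87), while Fkbp5 and Klf9 are highest in LID+Vehicle replicate 2.

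One rat stood apart for the set as a whole. LID+Vehicle replicate 2 had the highest of 15 values for 6 of the 10 genes, Fkbp5, Tsc22d3, Sgk1, Klf9, Pdk4 and Ddit4, and the first or second highest for 9. It lay above the median of the other 14 arrays for all 10, with a mean of 1.82 SD above the average. Over 10726 genes above the dim level it was highest for 5.35%. LID+Vehicle replicate 1 had 2 highest values, Nfkbia and Cdkn1a, and 3 lowest, Nr3c1, Tsc22d3 and Klf9, and was highest for 12.7% and lowest for 17.6% of genes. The mean of the 27 other glucocorticoid-induced genes was highest in LID+Vehicle replicate 2 (8.45), followed by replicate 1 (8.36), against 7.50 to 7.62 in Normal rats. LID+PD98059 replicates 2 and 1 came next (8.14 and 8.06), and LID+Vehicle replicate 3 was at 7.81. That list holds Lcn2, which is on the reactive astrocyte list too.

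**Figure D4:**
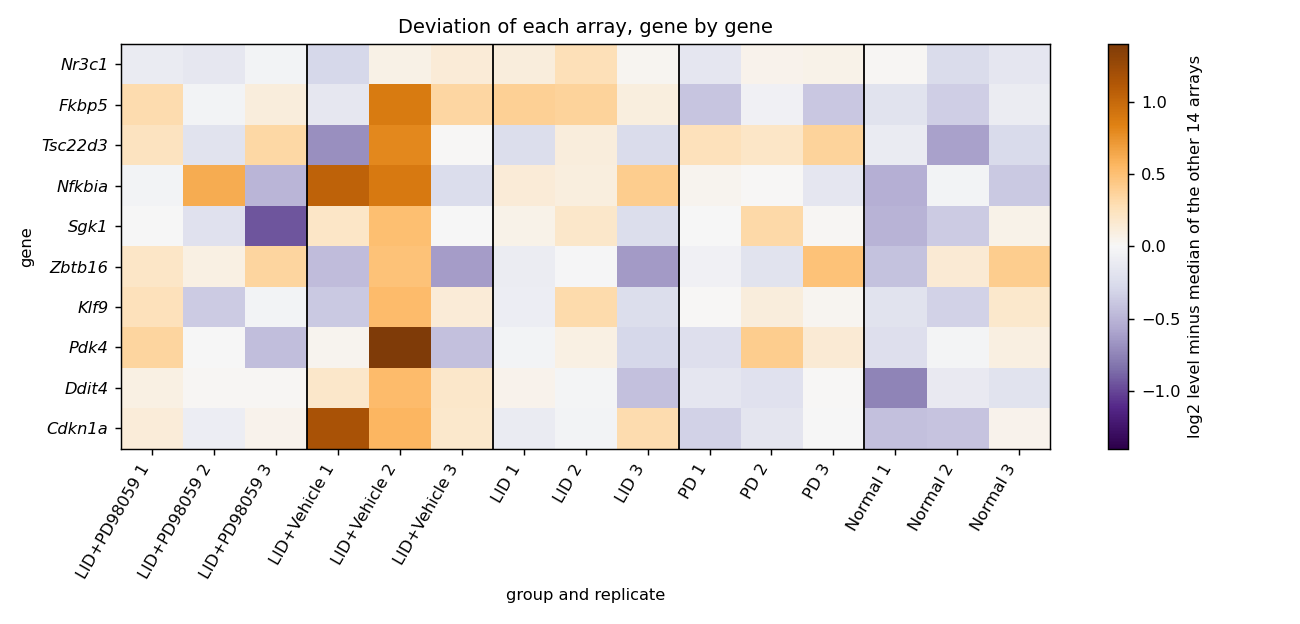
Log2 level of each gene (rows) in each rat (columns, by group and replicate) minus the median of the other 14 arrays, from low (purple) to high (orange). The column of LID+Vehicle replicate 2 is above 0 for all 10 genes.

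The likeness of the genes to each other rested in large part on that rat. Over 15 arrays the 45 pairs had a median correlation of 0.43, ranging from -0.21 (Nr3c1 with Nfkbia) to 0.77 (Tsc22d3 with Klf9), with 16 pairs above 0.5. Without LID+Vehicle replicate 2 the median was 0.15, and 6 pairs stayed above 0.5. Tsc22d3 with Klf9, Nfkbia with Cdkn1a and Sgk1 with Pdk4 were at 0.65, 0.66 and 0.64 without it. With group means removed the median was 0.43, and 0.22 without that array as well.

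Outside the set, the genes whose values over 15 arrays were most like the average of the 10 were Dydc1 (correlation 0.86, at a dim level), Ythdc1 (0.84), Pkp2 (0.82), Igf1r (0.81), Gnptab (0.80), Ccar1 (0.79), Ndufaf7 (0.79) and Nutm2f (0.79, also dim). All 8 were highest in LID+Vehicle replicate 2, as was the average they were picked to match, so the selection favoured such genes. Ranked without that array, Dydc1 was at 5 and the others at 136 to 1979. Igf1r, the receptor for insulin-like growth factor, was at 0.38 without that array, while Dydc1 was at 0.83.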

How the data were processed

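Signals of the Rat Gene 2.0 ST array of Affymetrix were deposited by the authors as log2 values, normalized by RMA in Affymetrix Expression Console (version not given in the sources used here), with the probes of a transcript summarised. The paper names an exon level option and a median, and the table does not say which was used. The values were used unchanged. Of 36685 rows, 18511 had 1 symbol in the probe table, 575 several and 17599 none, and the brightest row stood for a gene. Array medians were 5.56 to 5.65, and the number of arrays limits the precision.

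limma 3.58.1 in R 4.3.3 was fitted with 1 mean per group over 15 arrays. Its p-values were two-sided and adjusted by the Benjamini-Hochberg method over all rows, and the fit was tested on simulated data. The dim level of 5.85 is the 95th percentile of 70 olfactory receptor rows. Plots used matplotlib 3.10.9. Alternatives were array medians, quantile normalization, trend, robust and weighted fits, a filter on level, only the arrays compared, a replicate block, and leaving out each array.

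All 10 members are named, with full statistics where the unadjusted p was under 0.05 and the fold change at least 1.2. Of each other list up to 4 genes with the smallest p were eligible to be named, and not all are. The members and 14 other lists were chosen with earlier results of these data known. The 2 comparisons that join the L-DOPA groups were added after the values had been seen, the one against PD alone after the results of the one against PD and Normal were known.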

Additional observations from a re-analysis of the deposited data

How the results depend on the processing

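No direction of a called gene was reversed under any alternative run. Averaging all rows of a gene changed nothing, since each of the 10 has 1 row. In LID+PD98059 against LID+Vehicle, leaving out 1 array gave 1 to 4 genes past the unadjusted threshold and medians of -0.33 to 0.0013. In LID+Vehicle against LID these were 1 to 4 genes and -0.12 to 0.31, in LID+PD98059 against LID 0 to 1 genes, and in LID against PD 0 to 1 genes. For the L-DOPA groups it was 1 to 3 genes against PD and 2 to 4 against PD and Normal. There, 0 to 1 genes passed the adjusted threshold: Cdkn1a without LID+Vehicle replicate 3 and Fkbp5 without LID+Vehicle replicate 1 (limma adjusted p = 0.0418 and 0.0247).

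With only the 6 arrays compared, 1 gene passed the unadjusted threshold in LID+PD98059 against LID+Vehicle, 1 in LID+Vehicle against LID, 2 in LID against PD and 1 in PD against Normal. Over all rows, the adjusted threshold was passed by 2 rows in LID against PD (1 with only the 6 arrays compared, with rows above the median level, or with the replicate block, and 1 to 2 with an array left out) and by 0 to 1 in the other planned comparisons with an array left out. For the L-DOPA groups against PD, 6 rows passed, and 16 with an intensity trend, 16 with trend and robust settings, 74 with array weights, 33 with rows above the median level, 2 with the replicate block and 1 to 26 with an array left out. Against PD and Normal, 654 rows passed, with 1404 rows and 1 gene of the set under array weights, 1154 rows and 1 gene with rows above the median level, and 235 to 1031 rows with an array left out.

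The replicate numbers did not pair the rats: of 30 same-numbered pairs 6 had correlated deviations above 0.1, and the median was 0.01. With the replicate block, 1 gene in place of 2 passed in the L-DOPA groups against PD, since Cdkn1a missed the threshold.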
